A study of Mus musculus with 24 samples.

Results

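The Krüppel-like factors (KLFs) examined here are 10 genes of 1 transcription factor family, Klf2, Klf3, Klf4, Klf5, Klf6, Klf7, Klf9, Klf10, Klf12 and Klf13, taken by name from the 51912 genes of the deposited count tables. Their RNA was measured in 9 RNA-seq libraries in 3 groups of 3, and all 10 genes were found in every table. The first group was wild type mouse embryonic stem cells (ESCs) of strain C57BL/6 X 129S5, the TC-1 line, which was cultivated on gelatin with LIF, the cytokine that holds ESCs in an undifferentiated state. The second was neuronal progenitors (NPs) made from the same wild type line through floating aggregates grown without LIF, with retinoic acid added in the later days. The third was ESCs with a TET1/2/3 triple knockout (TET TKO), a deletion aimed at the enzymes that oxidise methylated cytosine. The TET TKO line has the strain background C57BL/6 X 129/sv, so genotype and cell line cannot be told apart in this comparison. The methods of the study call the RNA-seq replicates biological without saying what was repeated.

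KLFs bind GC-rich and CACCC sequences through 3 zinc fingers at the carboxyl end of the protein, and the regions in front of the fingers decide which partners they recruit. Klf2, Klf4, Klf5, Klf6 and Klf7 are usually counted as activators, Klf3 and Klf12 carry a motif that binds the co-repressor CtBP, and Klf9, Klf10 and Klf13 bind the co-repressor SIN3A. Klf2, Klf4 and Klf5 are known parts of the ESC self-renewal network, where Klf4 is induced by LIF through STAT3, and Klf4 is one of the factors used to reprogram somatic cells.

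The data bear on how this family is expressed when ESCs become NPs and in ESCs without TET proteins. To show the kind of sequence the members start from, the 250 bases in front of the RefSeq start site (GRCm38.p6) are given for the 3 members with the largest changes that had an entry, and for Klf13, a member called in neither comparison. Each is printed 5′ to 3′ on the strand of the gene, and capitals mark every GC box (GGGCGG) and every CACCC box (CACCC) on either strand, including matches that overlap. Klf2 lies at chr8:72318812-72319061 (+), Klf4 at chr4:55532476-55532725 (-), Klf9 at chr19:23140976-23141225 (+) and Klf13 at chr7:63938916-63939165 (-).
Klf2: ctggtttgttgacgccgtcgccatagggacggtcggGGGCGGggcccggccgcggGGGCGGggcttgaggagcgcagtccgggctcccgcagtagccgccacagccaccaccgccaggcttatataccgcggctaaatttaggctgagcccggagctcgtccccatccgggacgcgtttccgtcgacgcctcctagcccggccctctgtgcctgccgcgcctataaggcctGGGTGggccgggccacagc
Klf4: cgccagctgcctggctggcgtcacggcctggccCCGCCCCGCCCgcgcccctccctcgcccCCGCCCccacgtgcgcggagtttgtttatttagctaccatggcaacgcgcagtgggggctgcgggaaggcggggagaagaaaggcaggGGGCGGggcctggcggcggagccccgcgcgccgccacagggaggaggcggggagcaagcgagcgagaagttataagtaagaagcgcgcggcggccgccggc
Klf9: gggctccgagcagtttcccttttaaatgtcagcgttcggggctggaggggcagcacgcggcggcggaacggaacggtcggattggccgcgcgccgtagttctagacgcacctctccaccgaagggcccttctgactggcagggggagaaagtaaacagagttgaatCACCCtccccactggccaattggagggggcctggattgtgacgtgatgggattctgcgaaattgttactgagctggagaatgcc
Klf13: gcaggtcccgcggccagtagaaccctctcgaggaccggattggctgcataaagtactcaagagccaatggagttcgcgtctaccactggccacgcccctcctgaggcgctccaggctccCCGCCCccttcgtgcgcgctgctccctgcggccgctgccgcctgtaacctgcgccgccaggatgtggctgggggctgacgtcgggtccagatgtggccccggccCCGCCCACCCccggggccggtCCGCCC

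In these 250 bases Klf2 had 2 GC boxes and 1 CACCC box, Klf4 had 4 GC boxes and 0 CACCC boxes, Klf9 had 0 and 1, and Klf13 had 3 and 1. RefSeq windows of 300 bases, from 250 before to 50 after the start, were found for 8 of the 10 members and not for Klf5 and Klf10. A GC box was in 6 of the 8, against 35.7% of all 32851 windows of that length, and a CACCC box in 6 of the 8, against 57.5%. The number of CpG dinucleotides per window was 32 for Klf2, 40 for Klf4, 28 for Klf9, 32 for Klf13, 29 for Klf3, 23 for Klf6 and 16 for Klf7, all above the median of 7 over all windows, and 6 for Klf12. The KLF4 core GGGTGTGG was in the Klf12 window alone (3.56% of all windows) and the STAT palindrome TTCNNNGAA in the Klf9 window alone (8.3% of all windows). Such matches describe the letters only.

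The ESC and NP libraries had 20519702 to 23976914 counted reads and the TET TKO libraries 80704741 to 93210102, so that TET TKO values rest on more reads. Defining ESC markers (Pou5f1, Nanog, Zfp42, Esrrb and Dppa5a) summed to between 2060 and 2137 RPKM in ESCs and 1916 and 2662 in TET TKO cells, and to between 4.52 and 23.1 in NPs. The similar TET TKO sum held changes in both directions. Dppa5a was higher with no overlap (1508 RPKM, 956 in ESCs). Zfp42 (50.6 RPKM, 304 in ESCs), Pou5f1 (296, 393 in ESCs) and Esrrb (102, 155 in ESCs) were lower with no overlap, and Nanog overlapped. That is 1 higher and 3 lower, against 32.2% and 19.6% of all genes tested. RPKM, the read count scaled to exon length and library size, is used for all levels. NP markers (Pax6, Nes, Sox1, Hes5 and Fabp7) summed to between 106 and 185 RPKM in NPs and 4.56 and 5.40 in ESCs. Markers of some other cell types also summed higher in NPs than in ESCs. Endoderm markers summed to between 18.7 and 22.9 RPKM (1.07 to 1.83 in ESCs) and mesenchyme markers to between 6.17 and 42.4 (2.07 to 2.81 in ESCs). Trophoblast markers summed to between 12.2 and 17.3 (1.82 to 2.31 in ESCs), mostly Krt7 (9.71 RPKM) and Gata3 (3.84). Of the trophoblast markers 4 were higher in NPs with no overlap, against 36.3% of all genes tested. Elf5, among these 4, was too low to be tested (0.139 RPKM). Eomes was lower (0.106 RPKM, 1.28 in ESCs), as were 35.6% of all genes. In TET TKO cells mesoderm markers summed to between 7.83 and 14.0 RPKM (2.18 to 2.98 in ESCs), trophoblast markers to between 5.79 and 15.7, and NP markers to between 8.77 and 18.9. The mesoderm sum rested on Hand1 (9.89 RPKM, 0.504 in ESCs). T and Kdr were lower in every TET TKO library than in any ESC library, and Mesp1 and Tbx6 overlapped. Of the trophoblast markers, 4 (Elf5, Eomes, Gata3 and Krt7) were higher in TET TKO cells with no overlap, against 32.2% of all genes tested. Cdx2 overlapped. Krt7 was uneven, at 1.93, 2.41 and 9.16 RPKM in the TET TKO libraries. Most of the NP marker sum was Nes (11.0 RPKM, 4.02 in ESCs), Fabp7 was higher with no overlap, and Pax6, Sox1 and Hes5 overlapped. The part of these cell types in the KLF differences was not tested. Neuron markers summed to between 76.6 and 183 RPKM in NPs and 120 and 136 in ESCs. Tubb3 (68.1 RPKM) and Stmn2 (56.1 RPKM) made up most of the ESC sum. Dcx, Elavl3 and Map2 were higher in every NP library than in any ESC library, Stmn2 was lower, and Tubb3 overlapped. Dcx was at 7.68 RPKM in NPs and 0.00231 in ESCs, and Stmn2 at 7.58 in NPs. The part of neurons in the KLF differences was not tested either. None of the marker genes was at 0 in every library of a group. In bulk RNA, fewer cells of a type and less RNA per cell cannot be told apart.

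In ESCs, Klf2 was by far the most abundant member. Its level was 165, 174 and 195 RPKM in the 3 libraries, a mean of 178 ± 15.4 (SD, n = 3), and 99.1% of the 15505 genes over 1 RPKM in any library lay below it. Klf5 (74.3 ± 5.57 RPKM) and Klf4 (72.2 ± 1.33 RPKM) followed with overlapping ranges, then Klf9 (50.7 ± 2.94) and Klf10 (41.0 ± 3.48), each separate from the next. The lowest of these 5 genes, Klf10, stood above 91.2% of the same 15505 genes. Klf13 (11.8 ± 1.41 RPKM) and Klf3 (11.7 ± 0.345) overlapped each other, and Klf6 (8.40 ± 0.683), Klf12 (2.88 ± 0.180) and Klf7 (1.6 ± 0.147) closed the order with no overlap between neighbours. By the cut-off the study used for high expression, a log2(1 + RPKM) of 1, all 10 members were highly expressed on the mean of each group. Klf2 passed it in NPs through NP replicate 2 alone, with a mean of 0.93 without it, and Klf12 was below it in 1 TET TKO library.

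The level of Klf7 depended on how its length is counted. Of its 8131 exon bases, 3196 are shared with the antisense gene Gm26649 and 4 with another antisense gene. Counting took no account of strand, and under the default settings of the counter a read that fits 2 genes is given to neither. Gm26649 had 0 reads in all 9 libraries. With the shared bases left out of the length, Klf7 stood at 2.64 ± 0.242 RPKM in ESCs, just under the lowest Klf12 library (2.67 RPKM), and its highest library (2.90 RPKM) overlapped the range of Klf12. Fold changes of Klf7 do not depend on this length. For Klf3, whose overlap with antisense Gm20033 covers 404 of 11243 bases, the same step moved the ESC mean from 11.7 to 12.2 RPKM.

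**Figure D1:**
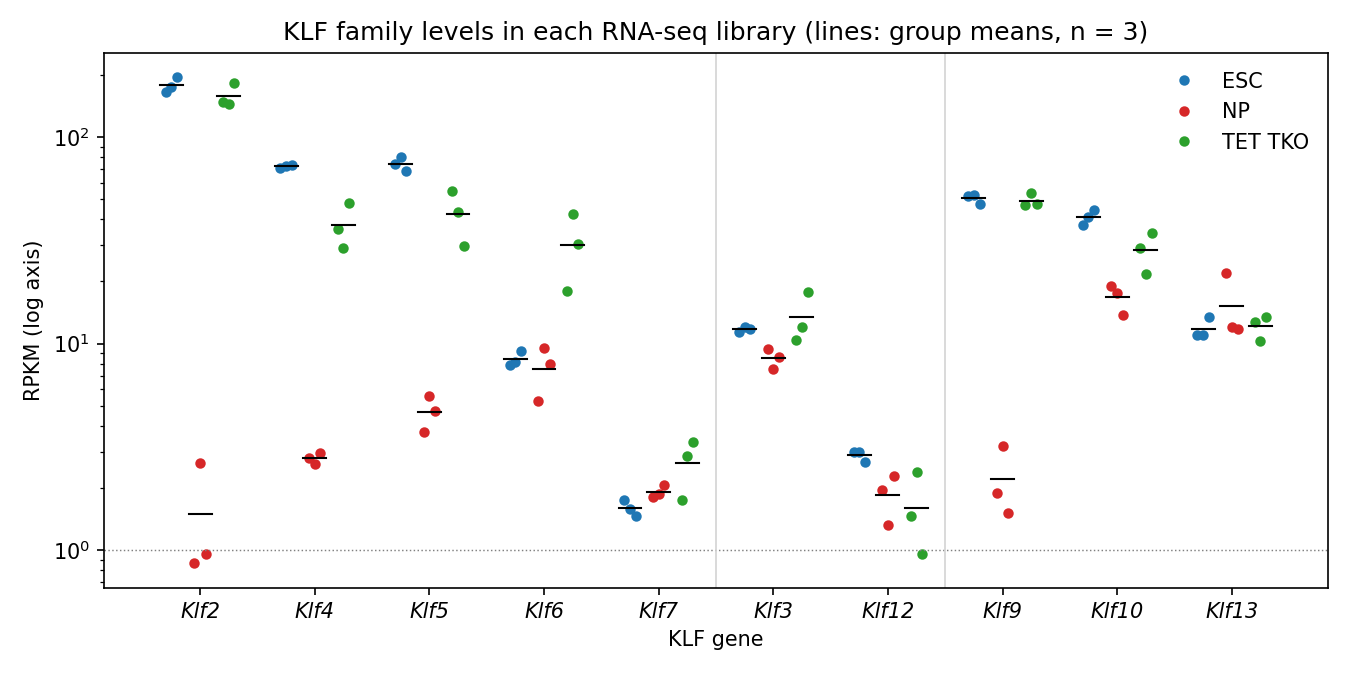
Level of each KLF gene in each library, in RPKM on a log axis, with 1 point per library and a short line at the mean of each group of 3; vertical lines part activators, CtBP-binding and SIN3-binding members, and the dotted line marks 1 RPKM. Klf2, Klf4, Klf5 and Klf9 stand at 47.3 RPKM or more in every ESC library and at 5.59 RPKM or less in every NP library.

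In NPs, 4 of the 10 members were lower by the limits of the study (adjusted p below 0.001, difference 3-fold or more): Klf2, Klf4, Klf5 and Klf9. None was higher. Of all 15197 genes tested, 9.98% were lower and 12.4% higher by this rule. With the limit on fold dropped, Klf10 joined the lower members, 5 of 10 against 16% of all genes, and 0 were higher against 17.9%. At an unadjusted p under 0.05, 6 members were lower, against 32.8% of all genes, and 0 higher, against 34.7%. DESeq2, the other tool run, also called 4 lower and 0 higher, against 12% and 13.7% of all genes. The median log2 fold change was -0.96 over the 10 members and 0.04 over all genes tested. The libraries of the 2 groups did not overlap for 8 members, 7 lower in NPs (35.6% of all genes tested) and 1, Klf7, higher (36.3% of all). The tests are edgeR's quasi-likelihood test with Benjamini-Hochberg adjustment over all genes tested, on counts.

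Klf2, an activator that in other settings is known for its part in endothelium and T cells, had the largest difference. Its 165, 174 and 195 RPKM in ESCs stood against 0.864, 2.65 and 0.958 RPKM in NPs, where it rested on 34, 119 and 41 reads. All NP libraries lay far below all ESC libraries, and NP replicate 2 was the highest of the NP libraries. The log2 fold change was -6.89 ± 0.39 (SE), a 118-fold lower level (adjusted p = 3.02e-06, edgeR's quasi-likelihood test with Benjamini-Hochberg adjustment). Klf2 passed from the first to the last place among the 10 members, and only 26.3% of the 15505 genes lay below it in NPs.

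Klf4, the reprogramming factor, was at 70.8, 72.3 and 73.4 RPKM in ESCs and at 2.79, 2.62 and 2.96 RPKM in NPs. The libraries of each group lay close together, and the groups were far apart. Its level was 25.9-fold lower in NPs, with a log2 fold change of -4.69 ± 0.12 (adjusted p = 2.45e-07, edgeR's quasi-likelihood test with Benjamini-Hochberg adjustment).

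Klf5, which besides ESCs is known from gut epithelium and early embryos, was at 74.2, 79.8 and 68.7 RPKM in ESCs and 3.74, 5.59 and 4.74 RPKM in NPs. The groups did not overlap, and the level was 15.8-fold lower in NPs. The log2 fold change was -3.98 ± 0.17 (adjusted p = 8.34e-07, edgeR's quasi-likelihood test with Benjamini-Hochberg adjustment).

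Klf9, a SIN3-binding member known as a target of hormone receptors, was at 52.1, 52.7 and 47.3 RPKM in ESCs. In NPs it was at 1.90, 3.20 and 1.51 RPKM. It too was lower in every NP library, 23.1-fold, with a log2 fold change of -4.53 ± 0.26 (adjusted p = 2.93e-06, edgeR's quasi-likelihood test with Benjamini-Hochberg adjustment). NP replicate 2 had the highest Klf2, Klf5 and Klf9 of the NP libraries, but the lowest Klf4 (2.62 RPKM). It also had the highest sums of ESC markers (23.1 RPKM) and of mesenchyme markers (42.4 RPKM) of the 3. Without this library Klf2 had a log2 fold change of -7.60, and the same 4 members were called.

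Klf10, known as a gene induced early by TGF-beta, was the intermediate case. It was at 37.5, 41.0 and 44.5 RPKM in ESCs and 19.1, 17.7 and 13.8 RPKM in NPs, with no overlap. The log2 fold change was -1.29 ± 0.14, a 2.44-fold lower level that is under the fold limit (adjusted p = 7.69e-05, edgeR's quasi-likelihood test with Benjamini-Hochberg adjustment). Although lower, Klf10 was the most abundant member in NPs, at 16.8 ± 2.73 RPKM.

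The other 5 members did not pass in NPs. Klf3, which recruits CtBP, was at 11.4, 12.0 and 11.8 RPKM in ESCs and 9.41, 7.50 and 8.62 RPKM in NPs, a log2 fold change of -0.46 ± 0.12 (adjusted p = 0.00846, edgeR's quasi-likelihood test with Benjamini-Hochberg adjustment). Klf12, the other CtBP-binding member, was at 2.99, 2.98 and 2.67 RPKM in ESCs and 1.95, 1.33 and 2.28 RPKM in NPs, a log2 fold change of -0.63 ± 0.28 (adjusted p = 0.0767, same test). Both were lower in every NP library than in any ESC library, by less than the limits asked for. Klf6, a broadly expressed activator, was at 7.91, 8.11 and 9.18 RPKM in ESCs and 5.26, 9.47 and 7.98 in NPs, with a 95% interval of the log2 fold change from -0.63 to 0.33. Klf7, known from the developing nervous system, was at 1.76, 1.58 and 1.47 RPKM in ESCs and 1.80, 1.87 and 2.08 in NPs, with an interval from -0.14 to 0.65. For Klf13, a SIN3-binding member, the ESC values of 11.0, 11.1 and 13.4 RPKM overlapped the NP values of 21.9, 12.0 and 11.8, with an interval from -0.18 to 0.91. Its higher mean in NPs rested on NP replicate 1: without it the log2 fold change went from 0.36 to 0.01.

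**Figure D2:**
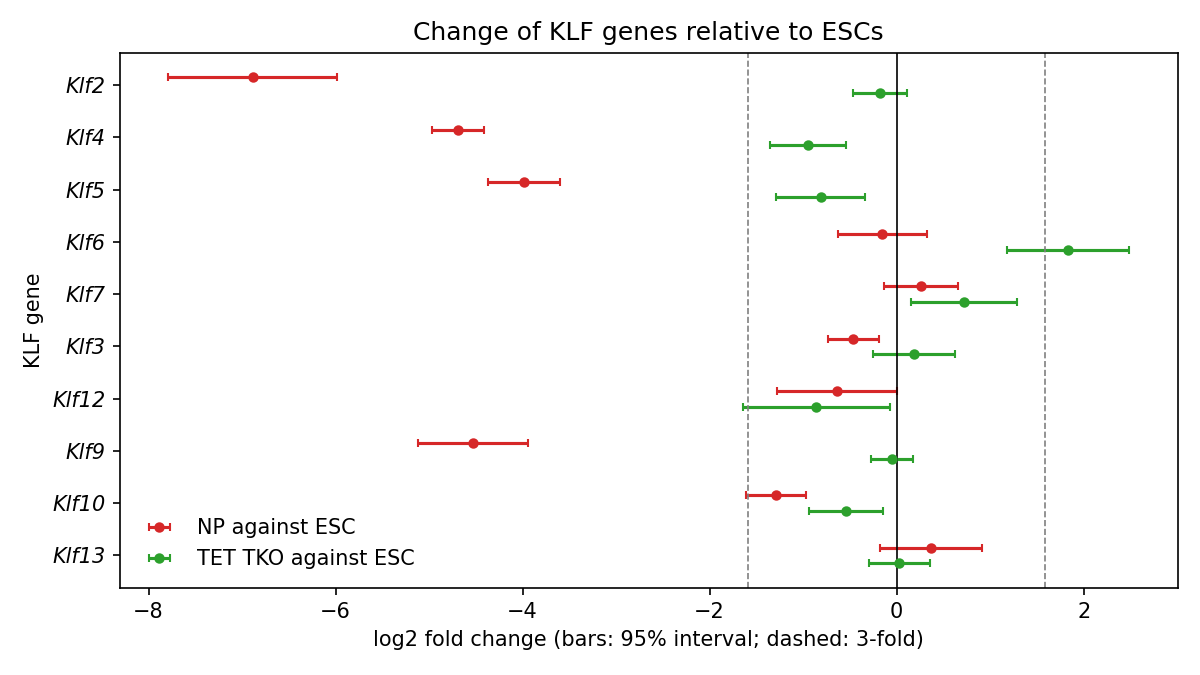
The log2 fold change of each KLF gene, with 95% intervals, for NPs (red) and for TET TKO cells (green) against ESCs, 3 libraries a group; dashed lines mark a 3-fold change. Klf2, Klf4, Klf5 and Klf9 lie between -6.89 and -3.98 in NPs, while in TET TKO cells the members lie between -0.95 for Klf4 and 1.83 for Klf6.

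Both the amount and the makeup of KLF RNA differed between ESCs and NPs. The 10 members summed to 452 ± 16.8 RPKM in ESCs and 63.1 ± 6.01 RPKM in NPs. The activators went from 334 ± 14.2 to 18.5 ± 3.89 RPKM, while the 2 CtBP-binding members went from 14.6 ± 0.355 to 10.4 ± 1.35 RPKM and the 3 SIN3-binding members from 104 ± 2.57 to 34.3 ± 7.97 RPKM. As a share of the sum, activators made up 73.9% ± 0.444 in ESCs and 29.6% ± 7.46 in NPs, and SIN3-binding members 22.9% ± 0.331 and 53.9% ± 7.61. Klf2 alone held 39.3% ± 2.10 of the sum in ESCs and 2.37% ± 1.56 in NPs. Klf10 held 26.6% ± 1.95 in NPs and Klf13 23.8% ± 7.06. Sums and shares are descriptions with no test. Shares taken from CPM, which ignores length, put Klf2 at 26.4% in ESCs and Klf13 at 33.0%, Klf3 at 28.2% and Klf10 at 15.1% in NPs.

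The order of levels in NPs was less sharp than in ESCs. Klf10 and Klf13 (15.2 ± 5.77 RPKM) had overlapping ranges and lay above Klf3 (8.51 ± 0.962), Klf6 (7.57 ± 2.14) and Klf5 (4.69 ± 0.930), of which neighbours overlapped. Klf4 (2.79 ± 0.170), Klf9 (2.20 ± 0.888), Klf7 (1.91 ± 0.143), Klf12 (1.85 ± 0.481) and Klf2 (1.49 ± 1.01) formed the lowest set, in which each overlapped the next. With the unshared length, Klf7 stood at 3.16 ± 0.236 RPKM in NPs, above Klf4 in every library.

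**Figure D3:**
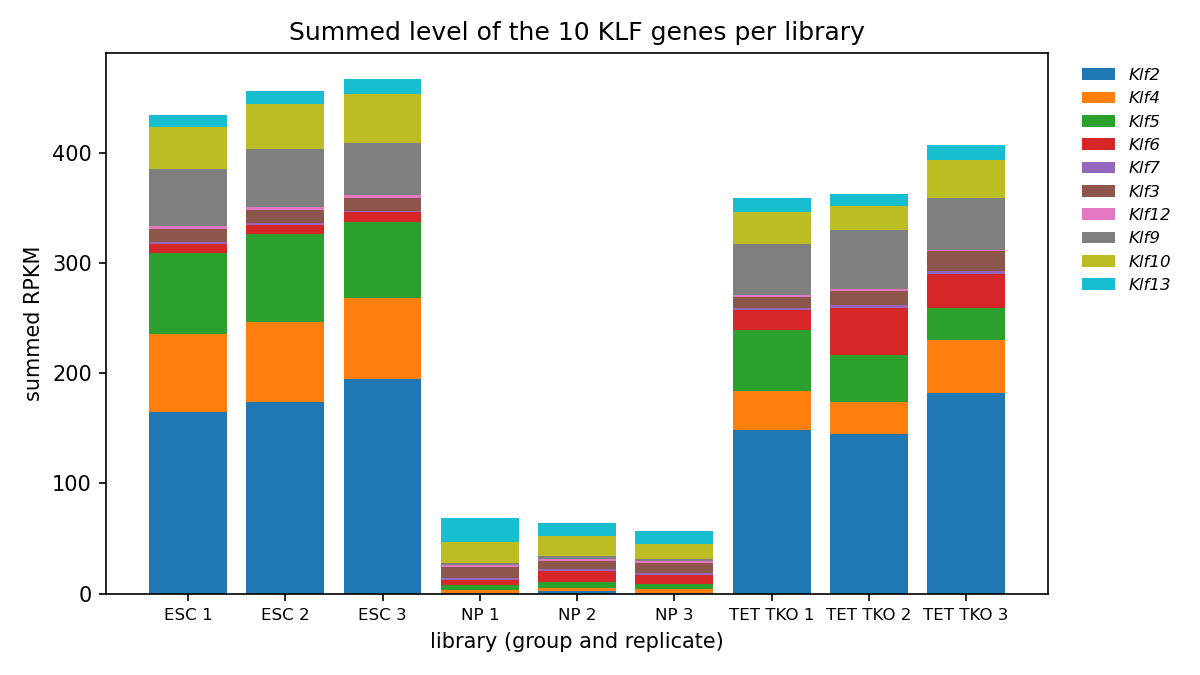
Summed RPKM of the 10 KLF genes in each of the 9 libraries, with 1 colour per gene. The bars average 452 RPKM (ESC), 63.1 (NP) and 376 (TET TKO), and Klf10 and Klf13 are the widest bands in NPs.

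In TET TKO cells the targeted genes were looked at first. Tet1 was at 65.9, 60.8 and 68.5 RPKM in ESCs and 13.2, 16.1 and 11.3 RPKM in TET TKO cells (log2 fold change -2.28 ± 0.14). Tet2 was at 20.5, 20.3 and 16.1 RPKM in ESCs and 2.42, 2.70 and 2.32 RPKM in TET TKO cells (log2 fold change -2.94 ± 0.13). Both were called lower, and Tet3 was under 1 RPKM in every ESC and TET TKO library and not tested. Reads from outside the deleted parts of a gene are still counted, so these values check the labels in part only.

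None of the 10 KLF members was called in TET TKO cells in either direction by edgeR's quasi-likelihood test, with the fold limit or without it. Of 13939 genes tested, 1.1% were higher and 1.21% lower with the fold limit, and 2.37% and 1.46% without it. At an unadjusted p under 0.05, 2 members were higher and 4 lower, against 29.7% and 16.8% of all genes. DESeq2 called 1 higher, Klf6, and 0 lower, against 2.9% and 3.63% of all genes. Libraries did not overlap for 1 member higher, Klf6, and 4 lower, against 32.2% and 19.6% of all genes. The median log2 fold change was -0.11 over the members and 0.12 over all genes. The scaling moved the latter to -0.05 with library sizes alone and the calls over all genes from 153 higher and 169 lower to 99 and 191. KLF values are thus best read relative to that shift.

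Klf6 had the largest difference. It was at 7.91, 8.11 and 9.18 RPKM in ESCs and at 17.9, 42.4 and 30.2 RPKM in TET TKO cells. Every TET TKO library lay above every ESC library, and the TET TKO libraries differed more among themselves than the ESC libraries. The log2 fold change was 1.83 ± 0.28, or 3.57-fold, with an adjusted p of 0.00267 by edgeR's quasi-likelihood test with Benjamini-Hochberg adjustment, short of the limit. Klf6 was called with DESeq2 (adjusted p = 1.69e-08), with no filter on low counts (adjusted p = 5.39e-07), with the replicate number as a block (adjusted p = 4.23e-04) and without TET TKO replicate 1 (adjusted p = 9.98e-04, log2 fold change 2.10), the latter 3 by edgeR's quasi-likelihood test with Benjamini-Hochberg adjustment. Over all alternatives its log2 fold change stayed between 1.51 and 2.10. Klf6 held 8.04% ± 3.40 of summed KLF RPKM in TET TKO cells and 1.86% ± 0.0969 in ESCs.

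Among the ESC network members, Klf4 was at 70.8, 72.3 and 73.4 RPKM in ESCs and 35.9, 29.1 and 47.8 RPKM in TET TKO cells. The groups did not overlap, with a log2 fold change of -0.95 ± 0.17 (adjusted p = 0.00533, edgeR's quasi-likelihood test with Benjamini-Hochberg adjustment), which met neither limit. Klf5 was at 54.9, 43.1 and 29.7 RPKM in TET TKO cells, all below the lowest ESC value of 68.7, with a log2 fold change of -0.81 ± 0.21. Klf2 was at 148, 145 and 182 RPKM in TET TKO cells, which overlapped its ESC values, and the 95% interval of its log2 fold change was -0.46 to 0.11. Klf2 thus stayed the most abundant member, with 42.0% ± 2.46 of summed KLF RPKM.

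Of the SIN3-binding members, Klf9 was at 46.8, 53.6 and 47.4 RPKM in TET TKO cells, within or next to its ESC range, and the interval of its log2 fold change was the narrowest of the 10, from -0.27 to 0.17. Klf10 was at 29.1, 21.8 and 34.3 RPKM, all below its ESC libraries, with a log2 fold change of -0.54 ± 0.17. Klf13 was at 12.8, 10.2 and 13.4 RPKM, with a log2 fold change of 0.03 ± 0.14 whose sign turned under several alternatives. Klf3 was at 10.5, 12.0 and 17.8 RPKM (log2 fold change 0.19 ± 0.19), Klf12 at 1.47, 2.38 and 0.962 RPKM (-0.86 ± 0.34), and Klf7 at 1.75, 2.85 and 3.36 RPKM (0.72 ± 0.24). Of these last 3 only Klf12 was below its ESC values in every library, and Klf3 and Klf7 overlapped them.

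The members varied more between TET TKO libraries than between ESC libraries. The coefficient of variation of Klf4 was 1.85% in ESCs and 25.2% in TET TKO cells, that of Klf5 7.51% and 29.6%, that of Klf6 8.13% and 40.5%, and that of Klf3 2.94% and 28.6%. The gap was smaller for Klf2 (8.67% and 13.0%), Klf9 (5.80% and 7.61%) and Klf13 (11.9% and 13.7%). The wider spread was not particular to the family. It was also seen for Nanog (4.82% and 48.2%) and Socs3 (6.85% and 42.3%), while Lifr went the other way (6.78% and 0.765%). Over all genes, log2 levels of library pairs had correlations of 0.993 to 0.996 in ESCs and 0.988 to 0.993 in TET TKO cells. The TET TKO libraries are the deeper ones. Klf2 lay above the other members in TET TKO cells, and the next places were held by Klf9 (49.3 ± 3.75 RPKM), Klf5 (42.6 ± 12.6), Klf4 (37.6 ± 9.47), Klf6 (30.2 ± 12.2) and Klf10 (28.4 ± 6.28), each overlapping the next. The sum was 376 ± 26.6 RPKM, of which activators made up 72.1% ± 0.208 and SIN3-binding members 23.9% ± 0.680.

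Both comparisons use the same 3 ESC libraries. Side by side, the log2 fold changes in NPs and in TET TKO cells were -6.89 and -0.18 for Klf2, -4.69 and -0.95 for Klf4, -3.98 and -0.81 for Klf5, -4.53 and -0.05 for Klf9, and -0.15 and 1.83 for Klf6.

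Of the 7 KLF genes outside the set, 4 passed the filter of 1 RPKM. Klf8, a CtBP-binding relative of Klf3 and Klf12, was called lower in NPs. It was at 13.9, 14.9 and 12.3 RPKM in ESCs and 0.352, 0.798 and 0.564 RPKM in NPs, a log2 fold change of -4.58 ± 0.27 (adjusted p = 3.62e-06, edgeR's quasi-likelihood test with Benjamini-Hochberg adjustment). Its level was thus 23.9-fold lower, whereas Klf3 and Klf12 were not called, though the difference between these genes was not tested. Klf16 (25.05 RPKM in ESCs and 8.45 in NPs) was 2.97-fold lower, just under the fold limit, and was called by DESeq2. Klf11 was at 10.7 and 6.66 RPKM and Klf15 at 2.32 and 1.19 RPKM, neither called. By the main rule 1 of the 4, Klf8, was thus lower in NPs and 0 higher, against 9.98% and 12.4% of all genes tested. With the limit on fold dropped, 2 were lower and 0 higher, against 16% and 17.9%. At an unadjusted p under 0.05, 4 of the 4 were lower in NPs, against 32.8% of all genes. Klf1, Klf14 and Klf17 had means of 0.582 RPKM or less in both groups. In TET TKO cells none of the 4 was called by edgeR or by DESeq2, and Klf8 was at 7.82 ± 2.13 RPKM. At an unadjusted p under 0.05, 2 of the 4 were higher and 1 lower, against 29.7% and 16.8% of all genes tested.

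The SP genes, whose zinc fingers bind the same GC-rich sites, were listed for comparison, and 6 of 9 were tested in NPs. Sp8, which is known from forebrain and spinal cord patterning, was at 0.0412, 0.121 and 0.0178 RPKM in ESCs, 2 to 12 reads, and 9.14, 3.29 and 4.95 RPKM in NPs. Sp5, a Wnt target, was at 0.716, 0.981 and 0.736 RPKM in ESCs and 3.02, 5.31 and 3.39 RPKM in NPs. Both were called higher, with log2 fold changes of 6.60 ± 0.62 and 2.26 ± 0.31. That is 2 of 6, against 12.4% of all genes tested, and 0 SP genes were called lower, against 9.98%. DESeq2 also called 2 higher and 0 lower, against 13.7% and 12%. With the limit on fold dropped, 2 were higher and 2 lower, against 17.9% and 16%. The lower ones were Sp1 (44.6 RPKM in ESCs and 20.8 in NPs) and Sp2 (24.99 and 12.2). At an unadjusted p under 0.05, 3 were higher and 3 lower, against 34.7% and 32.8%. Of the 4 SP genes tested in TET TKO cells 0 were called by edgeR or DESeq2. At an unadjusted p under 0.05, 1 was higher and 1 lower, against 29.7% and 16.8% of all genes tested.

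**Figure D4:**
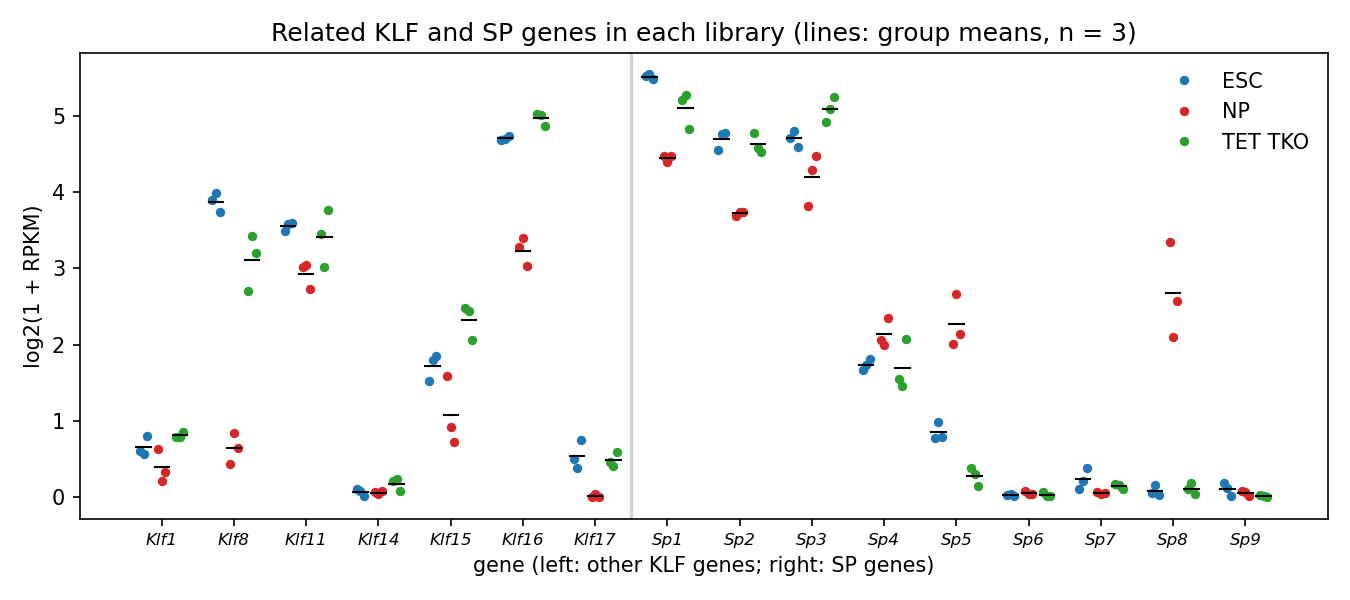
Level of the 7 other KLF genes (left) and the 9 SP genes (right) in each library as log2(1 + RPKM), with lines at group means (n = 3). Klf8 is low in the 3 NP libraries, at 0.798 RPKM or less, and Sp8 is at 3.29 RPKM or more in NPs and at 0.144 or less elsewhere.

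The genes around the KLFs were taken from lists. Of 7 genes of the LIF pathway, which acts upstream of Klf4 in ESCs, 2 were called lower in NPs, against 9.98% of all genes tested. Lifr, the receptor, was at 14.96, 14.1 and 13.1 RPKM in ESCs and 2.29, 2.60 and 1.77 in NPs (log2 fold change -2.66 ± 0.15), and Socs3, the feedback inhibitor, was at 43.7, 43.9 and 49.2 RPKM and 7.79, 14.9 and 5.99 (-2.26 ± 0.29). Neither group overlapped the other for these genes. Of the 7, 0 were called in TET TKO cells by edgeR or DESeq2. At an unadjusted p under 0.05, 3 were higher and 2 lower, against 29.7% and 16.8% of all genes tested.

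All 9 genes of the ESC network list were called lower in NPs, against 9.98% of all genes tested. They were led by Prdm14 (log2 fold change -8.81 ± 0.30), Zfp42 (-8.57 ± 0.47) and Pou5f1 (-8.49 ± 0.41), with a median of -7.65 over the list. In TET TKO cells 1 of 9 was called, Zfp42, a pluripotency marker also called Rex1, which was at 309, 298 and 306 RPKM in ESCs and 42.7, 46.0 and 63.2 RPKM in TET TKO cells (log2 fold change -2.60 ± 0.16). At an unadjusted p under 0.05, 6 of the 9 were lower and 0 higher, against 16.8% and 29.7% of all genes tested. With no overlap 7 were lower, against 19.6% of all genes. DESeq2 called Tbx3, a T-box factor, as well, a gene named after its values were seen.

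Of the 8 KLF cofactors, 1 was called higher in NPs, near the share of 12.4% over all genes tested. This was Ctbp1, which Klf3, Klf8 and Klf12 bind. It was at 21.1, 22.2 and 22.2 RPKM in ESCs and 86.8, 60.9 and 74.7 RPKM in NPs, a log2 fold change of 1.76 ± 0.15. No cofactor was called lower, against 9.98% of all genes tested, and 0 by DESeq2, against 12%. At an unadjusted p under 0.05, 2 were higher and 4 lower in NPs, against 34.7% and 32.8%. With the limit on fold dropped, 2 cofactors were lower, against 16% of all genes. These were Ctbp2, the other CtBP gene (54.4 RPKM in ESCs and 20.5 in NPs), and Sin3a (68.0 and 35.1). Of the 8, 0 were called in TET TKO cells by edgeR or DESeq2. At an unadjusted p under 0.05, 3 were higher and 2 lower, against 29.7% and 16.8% of all genes tested. In NPs, Tet1 (4.17 RPKM, log2 fold change -3.97 ± 0.21) and Tet2 (3.30 RPKM, -2.52 ± 0.19) were called lower, against 9.98% of all genes tested. Tet3 (7.82 RPKM, 3.45 ± 0.38) was called higher, against 12.4%.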

How the data were processed

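RNA-seq counts per gene were deposited by the authors, who, per the file headers and the submitters' notes, trimmed single-end reads with Trimmomatic 0.38, aligned them to GRCm38 with STAR 2.6.1b and counted exon reads with featureCounts 1.6.2 (Ensembl release 89, without regard to strand). The 10 members, the gene lists and the tests were chosen with earlier results of these data known. Groups came from the sample labels. Counts were tested with edgeR 4.0.16 (R 4.3.3, TMM, quasi-likelihood F test, 2 groups per fit) on genes at 1 RPKM or more in at least 1 library of the comparison. Calls needed an adjusted p (Benjamini-Hochberg) below 0.001 and a 3-fold difference. RPKM used TMM over the 9 libraries and the exon lengths in the files. SE is the log2 fold change over the root of F. Replicate counts all differed by more than sampling noise.

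Named were all 10 members, all other KLF genes by level, Tet1 to Tet3 and, per further list and comparison, at most the 3 called genes with the largest change. Tbx3, Ctbp2, Sin3a, Sp1, Sp2 and single marker genes were named after their values were seen. DESeq2 1.42.0 and other scalings, filters, fold limits, samples, depths and lengths were alternatives. Counts were also simulated from the count model that edgeR fits, with 200 changed genes. Of the changed genes that passed the filter, the steps called 68.8% of those changed by 2 on the log2 scale and 91.7% by 3 for NPs (14218 genes). For TET TKO cells (13344 genes) these were 75.5% and 93%. There were 0 false calls, which cannot show how the steps do where real counts depart from that model. Total counts per library limit precision, above all for Klf2 in NPs. Promoter letters are from RefSeq. Protein features and the bisulfite tables of the 24-sample series were not analysed here.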

Additional observations from a re-analysis of the deposited data

How the results depend on the processing

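In NPs, Klf2, Klf4, Klf5 and Klf9 were called lower under every alternative run, and Klf10 joined them (5 members) with a fold limit of 2 and with no fold limit, the latter chosen after seeing the data. No member was called higher under any of them. In TET TKO cells the number of members called higher went from 0 to 1, Klf6, with DESeq2 (1), with no filter on low counts (1) and with the replicate block (1), and ranged from 0 to 1 when single libraries were left out (1 without TET TKO replicate 1). The cause was not tested. Deviations of same-numbered libraries had correlations of -0.157 to 0.013 for NPs, and of -0.0944, 0.355 and 0.214 for TET TKO replicates 1, 2 and 3. TET TKO replicates 2 and 3 thus correlated best with their own number and replicate 1 did not, so that pairing was not taken as shown. With the number as a block, Klf6 had a log2 fold change of 1.75 (adjusted p = 4.23e-04, edgeR's quasi-likelihood test with Benjamini-Hochberg adjustment), and the calls over all genes went from 153 higher and 169 lower to 342 and 332. Signs turned only among values near 0. Klf13 in TET TKO cells was at -0.13 with library sizes alone, -0.084 with DESeq2, -0.0467 with counts thinned to the ESC depth, and -0.0469 to 0.138 when single libraries were left out. Klf6 in NPs ranged from -0.34 to 0.055 and Klf3 in TET TKO cells from -0.0686 to 0.34 when single libraries were left out. Klf4 in TET TKO cells stayed between -1.16 and -0.79.

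Counts over all genes in TET TKO cells were the least firm: 404 higher and 506 lower with DESeq2, 574 and 689 with no filter, 287 and 198 with a fold of 2, 41 and 111 with a fold of 8, and with no fold limit, 331 and 204. They fell to 14 and 36, 18 and 41, or 24 and 50 without ESC replicate 1, 2 or 3, and to 65 and 61 or 91 and 99 without TET TKO replicate 1 or 2. In NPs 1891 higher and 1517 lower became 2693 and 2588 with no filter, 2720 and 2425 with no fold limit, 947 and 964 with a fold of 8, and 1434 and 842 with at least 10 counts in every library. Shares of KLF RNA moved with the unit: with CPM, Klf2 held 26.4% in ESCs and 25.9% in TET TKO cells. Members at high expression by their mean numbered 9 to 10 in NPs when single libraries were left out, an alternative chosen after seeing the data.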
